A study of Danio rerio with 15 samples.

Results

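Neutrophils of tet2 mutant zebrafish embryos at 2 days post fertilization (dpf) were compared with neutrophils of younger wildtype embryos at 1.5 dpf, given in the labels also as 35 hours. The comparison rests on 6 of the 15 libraries of the series, 3 in each group, and every gene of the deposited table entered it. Cells had been sorted on a green fluorescent reporter under the mpx promoter, mpx being the gene of myeloperoxidase, and their RNA was read as a library of polyadenylated transcripts. The mutant group carries tet2-/- and the younger group is wildtype at the tet genes; the labels name no further allele or agent for either and do not describe the tet2 lesion. Genotype and stage therefore change together between the groups and cannot be told apart in this contrast. Wildtype embryos at 2 dpf, also 3 libraries, are given beside it as the group of matched age.

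Tet enzymes are dioxygenases that oxidise 5-methylcytosine, and loss of Tet2 is best known for its effects on blood-forming cells in mice and humans. Zebrafish neutrophils arise from early myeloid cells of the embryo and carry granules filled with myeloperoxidase, lysozyme and proteases, together with an NADPH oxidase that makes superoxide. The embryo also makes red cells, which fill with embryonic globins, and pigment cells, some of which form melanin. Heat-inducible chaperones refold damaged proteins and are switched on by heat shock factor in cells under stress.

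Values are read counts that the authors scaled for library depth, called normalised counts below, with mean ± SD over n = 3 libraries per group. They compare libraries for 1 gene, and are not scaled for gene length. Changes are tet2 mutants minus younger wildtype on log2(normalised count + 1), a scale that shrinks the change of genes with few reads. Each adjusted p is that of limma with Benjamini-Hochberg adjustment over 15933 genes, and a gene was called, and is said to have risen or fallen, at an adjusted p under 0.05. The fit took its spread from all 15 libraries in 5 groups. The compared groups can vary more than the others. For lyz, the lysozyme gene, the SD was 56854 in tet2 mutants and 66263 in younger wildtype. It was 17870, 2820 and 4135 in wildtype at 2 dpf, tet3 mutants and double mutants. For such genes the shared spread may be too narrow. Nothing in the labels ties replicates to different clutches or sorts; a p here reflects how far libraries of a group lie apart, a spread that may be technical. Strand is not kept by the library kit, and a gene and its antisense or overlapping partner therefore share reads that cannot be told apart. In bulk libraries fewer cells of a type and less RNA per cell cannot be told apart.

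Depth was similar, at 13.29 to 13.8 M reads in tet2 mutants and 12.19 to 15.05 M in younger wildtype. Libraries correlated at 0.885 to 0.94 within tet2 mutants, 0.931 to 0.947 within younger wildtype and 0.771 to 0.904 between these groups, while tet2 mutants and wildtype at 2 dpf correlated at 0.87 to 0.96. 1 library of each group was lowest in neutrophil transcripts. The summed level of 8 neutrophil markers (mpx, lyz, npsn, lect2l, cpa5, mmp9, csf3r and cebp1) took 0.804, 1.99 and 1.604% of tet2 mutant libraries 1, 2 and 3, and 1.86, 2.55 and 1.05% of the younger wildtype libraries. All 8 markers were detected in all 6 libraries, and the summed shares overlapped between the groups. Among these 6 libraries tet2 mutant replicate 1 was also the highest library for neural, epidermis and muscle markers, with 0.359, 0.798 and 0.230% of counts. Younger wildtype replicate 3 was the highest of its group for neural markers, at 0.185%. Counts below are therefore also given without these 2 libraries, a choice made after the data were seen, as "without both".

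The targeted gene does not mark the genotype in these counts. tet2 was at 1994, 1474 and 1462 in the tet2 mutant libraries and at 819, 920.4 and 1407 in younger wildtype. The mutant libraries were the higher ones without overlap, but the difference did not pass the test (1643 ± 304 against 1049 ± 314, log2 change 0.67, SE 0.37, limma adjusted p = 0.213). A whole-transcript count does not show which allele a library carries. tet3 was at 1663 ± 379 and 1552 ± 555 (log2 change 0.14, limma adjusted p = 0.751). tet1, of the same enzyme family, was at 569.9, 427 and 509 in tet2 mutants and at 261, 208 and 280.2 in younger wildtype, with no overlap. It rose by 1.01 on the log2 scale (SE 0.34, limma adjusted p = 0.0488), just inside the threshold, and did not pass with edgeR, with quantile normalization, with only the 6 libraries fitted, without both, or when any 1 of the 6 libraries other than tet2 mutant replicate 2 was left out. In wildtype at 2 dpf tet1 was at 421 ± 118, and the difference of tet2 mutants from that group did not pass (log2 difference 0.29, SE 0.34, limma adjusted p = 0.948).

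Across the transcriptome 3161 of 15933 genes were called (19.8%), 1818 higher in tet2 mutants (11.4%) and 1343 lower (8.43%). The risers moved further: 785 of them passed a log2 change of 2 and 117 a change of 4, against 171 and 20 of the fallers. Their median changes were 1.80 and -0.92, while the median over all genes was 0.02. At an unadjusted p under 0.05 there were 5584 genes. Groups did not overlap for 5221 genes (32.8%). The total was 2074 without tet2 mutant replicate 1, 1605 without younger wildtype replicate 1, 1905 without younger wildtype replicate 2, and 2487 without both, of which 2098 were among the 3161. When only the 6 libraries were fitted, 818 genes were called. Set against wildtype at 2 dpf in the same fit, tet2 mutants differed in 16 genes (0.1%), 5 higher and 11 lower, with 1002 at an unadjusted p under 0.05. That number was unstable: it was 0 with limma on only the libraries compared, 111 with DESeq2, and 7 to 85 with 1 library left out. None of the members of the 28 gene lists described below was among those 16.

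**Figure D1:**
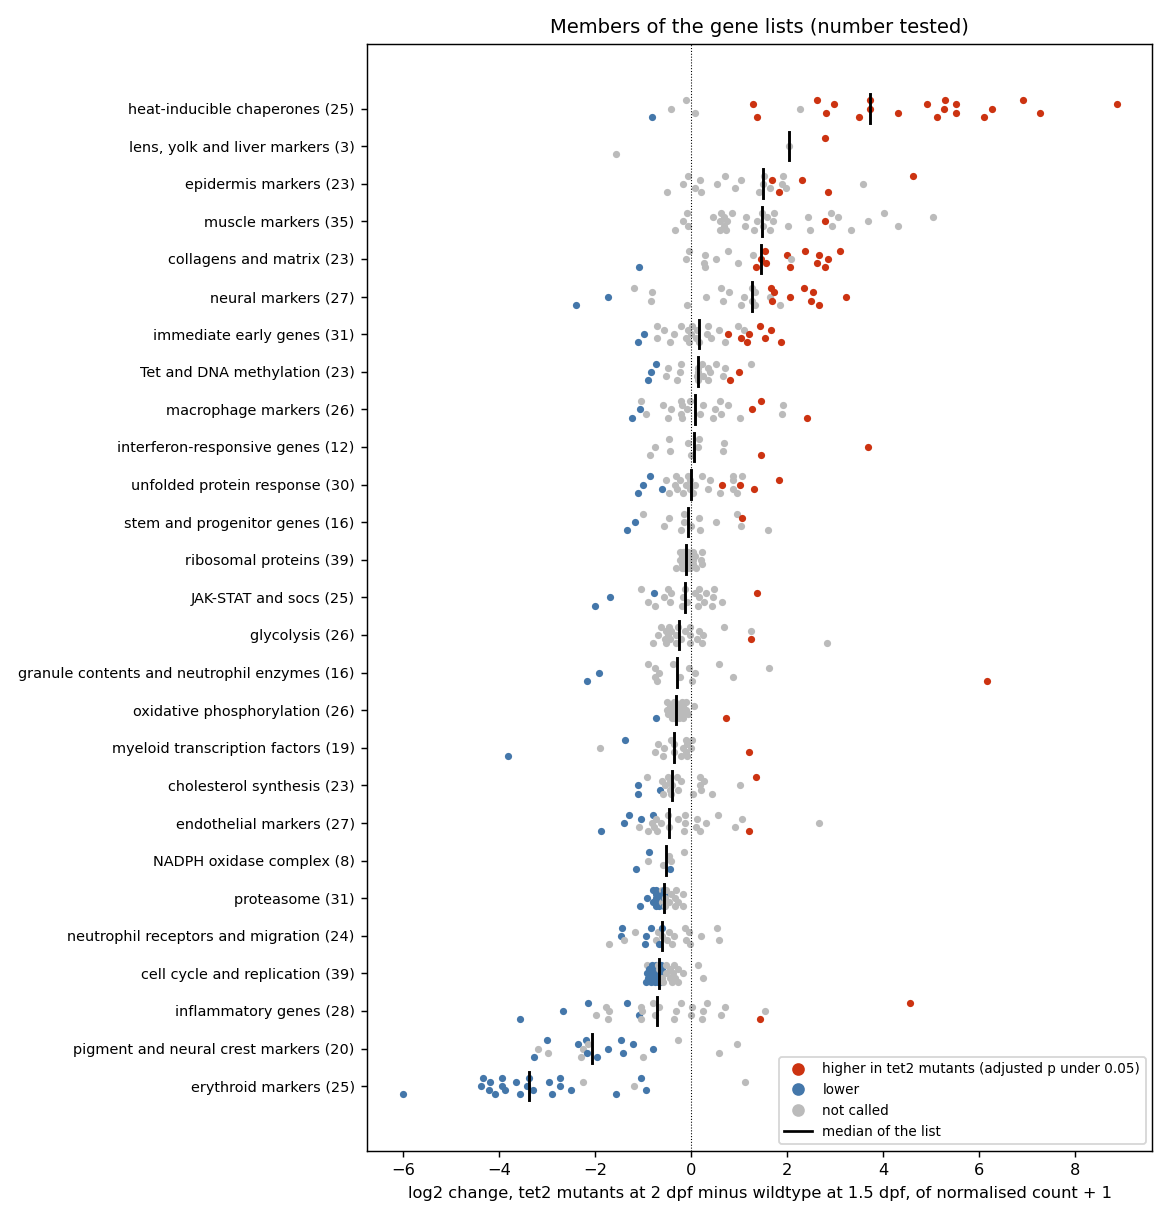
Each point is the log2 change of 1 list member, tet2 mutants at 2 dpf minus wildtype at 1.5 dpf, with called genes in colour, the median of the list as a bar and the number tested in brackets; 1 of the 28 lists is not shown. Heat-inducible chaperones lie farthest to the right (median 3.73) and erythroid markers farthest to the left (median -3.38), while the 39 ribosomal protein genes lie between -0.32 and 0.23.

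Chaperones of the heat shock response made the widest rise. Of 25 tested heat-inducible chaperone genes and their cofactors 20 rose, 1 fell and 4 did not pass. The shares called higher and lower were 80 and 4%, against 11.4 and 8.43% of all genes. Their median log2 change was 3.73 against 0.02 over all genes, and 20 also rose in every fit that left out 1 library and without both. hsph1, which encodes a nucleotide exchange factor of the Hsp110 family, was at 28885, 46696 and 73654 in the tet2 mutant libraries and at 109, 70.3007 and 122 in younger wildtype. It had the largest rise among all genes tested (log2 change 8.87, SE 1.2, limma adjusted p = 0.00073), and the groups lay far apart. hspb1, a small heat shock protein that holds unfolded clients, rose from 289.7 ± 14.8 to 45992 ± 13996 (log2 change 7.27, limma adjusted p = 0.000869). bag3, a co-chaperone that hands clients to autophagy, rose from 251 ± 41.1 to 31744 ± 11827 (6.92, limma adjusted p = 0.000269). The inducible cytosolic Hsp90 gene hsp90aa1.2 was at 181214, 197930.0 and 288698 in tet2 mutants and at 3519, 4572 and 1393 in younger wildtype (log2 change 6.27, limma adjusted p = 8.41e-05). Replicate 3 was the highest mutant library for each of these genes.

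Further cochaperones moved with them. hspa4a, a second Hsp110 gene, was at 39262, 60141 and 76016 against 2103, 1851 and 1639 (log2 change 4.93, limma adjusted p = 3.04e-05), and ahsa1b, an activator of the Hsp90 ATPase, rose from 1075 ± 208 to 21884 ± 6436 (4.31, limma adjusted p = 9.98e-05). The lowest p of the list belonged to serpinh1b, which encodes the collagen chaperone of the endoplasmic reticulum: its libraries were at 39585, 35072 and 49103 in tet2 mutants and 4075, 3409.6 and 2119.8 in younger wildtype (log2 change 3.73, SE 0.28, limma adjusted p = 2.35e-06). Among genes outside the list, DNAJA4 (Hsp40 family, 7.41), hspbp1 (an Hsp70 binding protein, 6.56) and a gene deposited as HSPA8 (1 of many) (6.48) were all among the 15 largest rises. The hsp70 genes are near-identical copies whose reads may be split between them. hsp70.1, deposited under a clone name and matched by identifier, rose from 1546 ± 943 to 98139 ± 36581 (6.11, limma adjusted p = 0.00178). Together hsp70l and hsp70.3 took 3.46, 2.18 and 4.88% of all normalised counts in the tet2 mutant libraries, 0.0888, 0.107 and 0.0570% in younger wildtype and 3.52, 4.14 and 3.96% in wildtype at 2 dpf.

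Members of the list that did not follow included the heat shock factor genes hsf1 and hsf2 and a constitutive chaperone, named after their values were seen. hsf1, the factor that switches the response on, was at 620.3, 697 and 604 in tet2 mutants and at 578, 683 and 813 in younger wildtype, and these ranges overlapped (limma adjusted p = 0.76). hsf2 fell, from 740.0 ± 123 to 422 ± 87.3 (log2 change -0.82, limma adjusted p = 0.0193), though it did not pass without tet2 mutant replicate 3 or without younger wildtype replicates 1 or 3. hspa4b, the paralog of hspa4a, was at 2744 ± 139 against 3649 ± 142 (log2 change -0.41, limma adjusted p = 0.0508). In wildtype at 2 dpf hsph1 was at 54533 ± 5884, hspb1 at 41093 ± 258 and serpinh1b at 35389.7 ± 1481. No chaperone of the list was called between tet2 mutants and wildtype at 2 dpf. The log2 difference of hsph1 there was -0.23 with an SE of 1.2, so changes of either sign remain within its error. That SE takes in all 15 libraries, and on the log2 scale hsph1 varied most among the double mutants, which are not compared here. The lack of a call therefore does not show that the groups were alike. Other 2 dpf libraries of the series stood lower. The list took 6.654 to 11.13% of counts in tet2 mutants and 8.477 to 9.665% in wildtype at 2 dpf. It took 0.9977 to 1% in tet3 mutants, and 0.523, 5.02 and 1.57% in tet2/tet3 double mutants 1, 2 and 3. hsph1 was at 475 ± 49.4 in tet3 mutants and at 237, 24036 and 891 in double mutants. The cause was not tested.

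**Figure D2:**
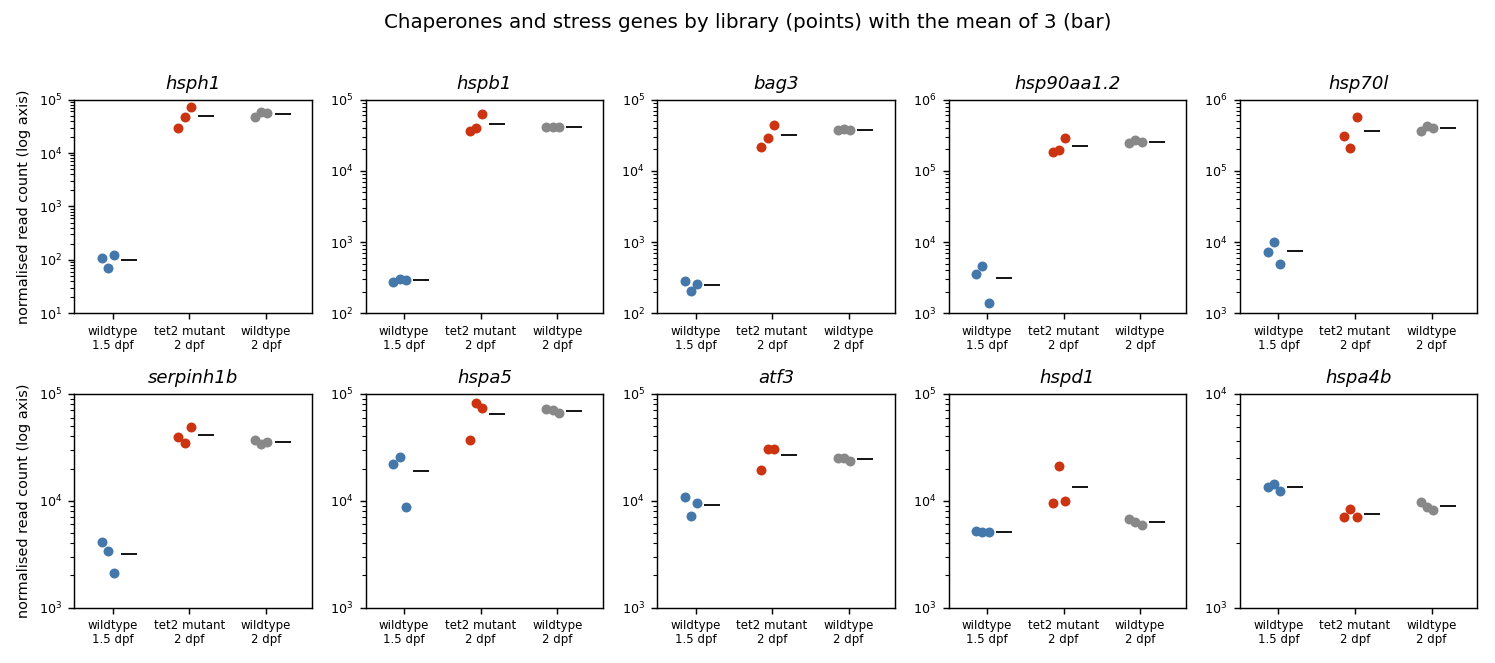
Normalised read counts on log axes for 10 chaperone and stress genes, with 1 point per library and the mean of 3 as a bar, in wildtype at 1.5 dpf, tet2 mutants at 2 dpf and wildtype at 2 dpf. For all but hspa4b the 3 tet2 mutant libraries lie above the 3 younger wildtype libraries; for hspa4b they lie below.

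The share of hsp70l and hsp70.3 did not overlap between the compared groups. With the level of these 2 genes in each library as a covariate, 25 genes were called in place of 3161, 0 of the heat-inducible chaperones and 2 of the erythroid markers among them. Since that covariate separates the groups completely, the fit leaves little of the contrast to any other gene. Whether the heat shock level had a part in the other changes was not tested.

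Several strongly raised genes do not encode heat shock chaperones. ric8a, which encodes a guanine nucleotide exchange factor and chaperone for G protein alpha subunits, was at 1301, 844 and 1082 against 0, 5.21 and 18.9 (log2 change 7.73, limma adjusted p = 0.00266). pdcd4b, related to an inhibitor of translation, rose from 253 ± 84.5 to 21150.5 ± 6921 (6.38, limma adjusted p = 0.000271). mlf1, whose human counterpart was found in a leukaemia fusion gene, rose by 5.92, and mss51 rose by 5.68. matn3a, which encodes a cartilage matrix protein, had 2 reads in all younger wildtype libraries together and was at 162, 191 and 207 in tet2 mutants, a ratio of 242 with a 95% counting interval of 66.6 to 2000 (limma adjusted p = 3.04e-05). scara3, a scavenger receptor gene, rose from 1.81 ± 1.57 to 138 ± 78.4 (5.66, limma adjusted p = 0.000266). Groups did not overlap for any of these genes, and none was called between tet2 mutants and wildtype at 2 dpf. Among the double mutants each of these genes was highest in library 2, as hsph1 was. There ric8a was at 39.2, 456 and 43.4 and pdcd4b at 1109, 17406 and 1523. In tet3 mutants their means were 26.0 and 877. Whether these genes moved with the heat shock level was not tested.

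Immediate early genes respond to stimuli within minutes. Of 31 tested 8 rose, 2 fell and 21 did not pass (25.8 and 6.45%, against 11.4 and 8.43% of all genes), with a median of 0.16; 3 rose with only the 6 libraries fitted, 10 rose and 1 fell without both, and 5 rose without younger wildtype replicate 1. The stress factor gene atf3 was at 19319, 30332 and 30717 in tet2 mutants and 10726, 7234 and 9463 in younger wildtype (log2 change 1.54, SE 0.21, limma adjusted p = 0.00023). jun and fosab, which encode partners in the AP-1 factor, rose by 1.16 and 1.44 (limma adjusted p = 0.000339 and 0.000586), and dusp1, a phosphatase gene that limits MAP kinase signalling, by 1.04 (limma adjusted p = 0.00355). The fallers, named after their values were seen, were ier5l (4038 ± 499 to 2128 ± 1427, log2 change -1.12, with overlapping libraries) and dusp6, a phosphatase gene of ERK (4978 ± 904 to 2519.8 ± 510.1, log2 change -0.99).

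Among 30 tested genes of the unfolded protein response of the endoplasmic reticulum 4 rose and 4 fell, 13.3% each way against 11.4 and 8.43% of all genes, with a median of 0.01. With only the 6 libraries fitted 1 rose and none fell. hspa5, the Hsp70 of that compartment, was at 37109.8, 82674 and 73495 against 21982, 25643 and 8706 (log2 change 1.84, limma adjusted p = 0.00398). The membrane-bound factor genes creb3l1 and creb3l2 rose by 1.31 and 1.02 (limma adjusted p = 0.00372 and 0.00405). asns, the asparagine synthetase gene, fell from 2283 ± 838 to 1062 ± 375 (-1.1, limma adjusted p = 0.00883). Without tet2 mutant replicate 1 the list had 8 risers and 2 fallers, and without both 5 and 4. Fallers numbered 2 without younger wildtype replicate 1 and 1 without its replicate 2.

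Erythroid transcripts made the widest fall. Of 25 tested markers of red cells 22 fell (88%, against 8.43% of all genes), none rose and 3 did not pass, with a median of -3.38. When any 1 of the 6 libraries was left out 20 to 22 fell, and 21 fell without both. The summed normalised count of the list was 34176, 17767 and 6165 in tet2 mutant libraries 1, 2 and 3 and 200971, 195746 and 184852 in younger wildtype, so every mutant library was below every younger one. It was 6735 to 10119 in wildtype at 2 dpf. Members of this list stood above 0 in all 6 compared libraries. The cells had been sorted on mpx, and whether red cells in the gate contributed these transcripts was not tested.

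Among genes with a mean of 50 or more in the higher group and not known by a clone name alone, the globin gene hbbe3 had the largest fall that was called without overlap. hbbe3, an embryonic beta globin gene, was at 2068, 1383 and 84.9 in the tet2 mutant libraries and at 46799, 40461 and 34392 in younger wildtype (log2 change -6.00, SE 0.93, limma adjusted p = 0.00138). hbae3, an embryonic alpha globin gene, was at 16076, 7210.2 and 1413 against 85126, 85435 and 81820.3 (-3.94, limma adjusted p = 0.00398). Replicate 1 was highest and replicate 3 lowest of the mutants for both. hbz, hbbe2, hbae5, hbbe1.2 and hbae1.3 were also among the 15 largest falls, with log2 changes between -4.46 and -3.94. Globin genes are close copies, so reads may be split between them. The exceptions, named after their values were seen, were hbbe1.1, at 4311, 1349.7 and 183 against 6815, 4251 and 3947 (limma adjusted p = 0.139), and hbae1.1, at 142 ± 120.5 against 44.9 ± 10.1 (limma adjusted p = 0.529).

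Genes of heme synthesis, iron uptake and the red cell membrane fell as well. alas2, the first enzyme of erythroid heme synthesis, was at 1289.8, 462 and 96.5 against 7082, 9034 and 8091 (-4.37, limma adjusted p = 0.00175). urod, a later enzyme of that path, was at 346, 751 and 687 against 4577, 4254 and 3805 (-2.90, SE 0.29, limma adjusted p = 2.78e-05). tfr1a, the transferrin receptor that brings in iron, fell from 2937 ± 659 to 196 ± 18.1 (-3.88, limma adjusted p = 3.19e-05). slc4a1a, the anion exchanger of the red cell membrane, was at 1704, 725 and 382 against 12557, 13750.3 and 13702 (-4.10, limma adjusted p = 0.000155), and sptb, a spectrin of its skeleton, fell by 3.30 (limma adjusted p = 3.04e-05). blvrb, a biliverdin reductase gene, fell by 2.51 (limma adjusted p = 2.78e-05). nt5c2l1, which is on no list, fell from 1528 ± 67.3 to 136 ± 153.

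Some transcription factor genes known from red cell development stood in other lists or were picked after their values were seen, so they are given singly. gfi1b, a repressor of erythroid and megakaryocyte cells kept here in the list of myeloid factors, was at 26.4, 50.8 and 102 against 843, 655 and 741 (-3.82, limma adjusted p = 9.98e-05). lmo2, a partner of the stem cell factor tal1, fell from 602 ± 115 to 239 ± 56.5 (-1.33, limma adjusted p = 0.00329). tal1 itself was at 448 ± 203 against 869 ± 256 and did not pass (limma adjusted p = 0.0574). gata1a and klf1, the leading activators of red cell genes, were chosen after their values were seen: gata1a was at 139, 50.8 and 129.9 against 702, 773 and 813 (-2.96, limma adjusted p = 0.000843), and klf1 fell by 2.73 (limma adjusted p = 0.000714). The mutant and younger libraries did not overlap for either.

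**Figure D3:**
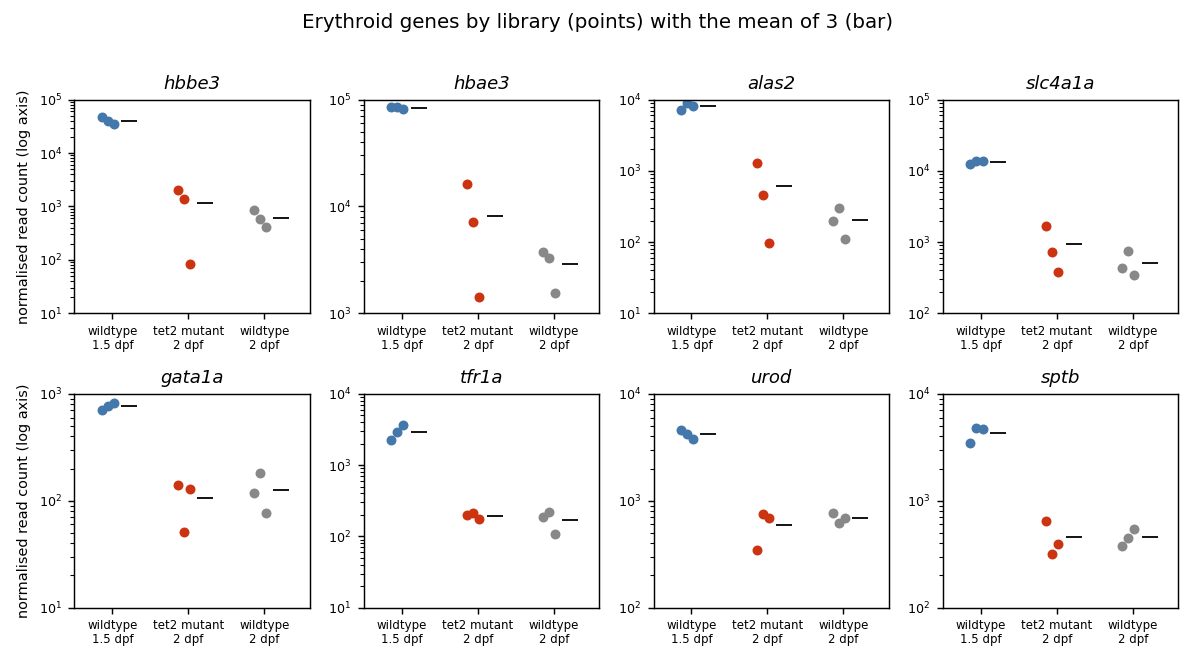
Normalised read counts on log axes for 8 erythroid genes, with 1 point per library and the mean of 3 as a bar. In each panel the 3 younger wildtype libraries lie above the 3 tet2 mutant libraries, and for hbbe3, hbae3 and alas2 the mutant libraries differ more among themselves than the wildtype libraries at 2 dpf do.

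Of 39 tested cell cycle and replication genes 21 fell (53.8%, against 8.43% of all genes), none rose and 18 did not pass, with a median of -0.67. Fallers numbered 20 without both, 2 with only the 6 libraries fitted, and 14 with quantile normalization. Counts with 1 library left out ran from 12 to 24, the lowest being without tet2 mutant replicate 3 or younger wildtype replicate 3, and 14 without tet2 mutant replicate 2. plk1, a kinase of mitosis, was at 1812, 1644 and 1729.7 in tet2 mutants and at 3247, 3247 and 3255 in younger wildtype (log2 change -0.91, SE 0.14, limma adjusted p = 0.000493). pold1, a catalytic subunit of DNA polymerase delta, fell from 1891 ± 226 to 1014 ± 172 (-0.91, limma adjusted p = 0.00401). rpa1, which coats single-stranded DNA, fell by 0.82 on the log2 scale (limma adjusted p = 0.00442), and cdc20, an activator of the anaphase-promoting complex, fell by 0.69 (limma adjusted p = 0.00466). The pold1, rpa1 and cdc20 calls ended with only the 6 libraries fitted. In wildtype at 2 dpf plk1 was at 1779 ± 101 and pold1 at 929 ± 39.7, and neither was called between tet2 mutants and that group. The libraries of tet2 mutants and younger wildtype did not overlap for 28 of the 39, where 32.8% of all genes were without overlap.

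In the list of Tet and DNA methylation genes 2 of 23 rose and 3 fell (8.7 and 13%, against 11.4 and 8.43% of all genes), and none did with only the 6 libraries fitted. dnmt1, the methyltransferase that copies methylation after replication, was at 2359, 2136 and 1827 in tet2 mutants and 3052, 3544 and 4883 in younger wildtype (-0.84, SE 0.18, limma adjusted p = 0.00571). Its partner uhrf1, named after its values were seen, was at 2919 ± 399 against 4279.9 ± 1205 and did not pass (limma adjusted p = 0.0611). dnmt3bb.2, a de novo methyltransferase gene, fell by 0.74 and dnmt3ab, another, rose by 0.81 (limma adjusted p = 0.0354 and 0.0395), and idh1, whose enzyme makes the 2-oxoglutarate that Tet enzymes use, fell by 0.90 (limma adjusted p = 0.0229) with overlapping libraries. No riser was called without tet2 mutant replicate 3 or without younger wildtype replicates 1 or 2. The calls of dnmt3bb.2, dnmt3ab and idh1 each ended in at least 3 of the 6 fits that left out 1 library, while dnmt1 was called in all of them.

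Proteasome subunits were lower in all 31 tested cases by sign, where 7831 of 15933 genes had a negative change. 17 fell (54.8%, against 8.43% of all genes) and 14 did not pass, with a median of -0.57 and a range from -1.06 to -0.16. With only the 6 libraries fitted 1 fell, and the psmd12, psmc6 and psmb3 calls ended. psmd11b, a subunit of the regulatory lid, was at 743, 894 and 666 against 1473, 1673 and 1625 (-1.06, limma adjusted p = 0.00197). psmd12 fell by 0.74 (limma adjusted p = 0.00799), the ATPase gene psmc6 by 0.73 (limma adjusted p = 0.0136) and the core particle gene psmb3 by 0.80 (limma adjusted p = 0.0137). The count depended on the libraries: 10 fell without both, 8 without tet2 mutant replicate 1 or replicate 3, and 4 and 5 without younger wildtype replicates 1 and 2. The psmb3 call ended without younger wildtype replicate 1 or 2. By contrast the 39 cytosolic ribosomal protein genes had 0 calls by limma, edgeR or DESeq2, and 0 at an unadjusted p under 0.05. Their changes lay between -0.32 and 0.23, though 31 of the 39 were negative too. With quantile normalization 6 of them fell.

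Collagen and matrix genes were mostly higher in tet2 mutants than in younger wildtype. Of 23 tested 12 rose, 1 fell and 10 did not pass, with a median of 1.47. The shares called higher and lower were 52.2 and 4.35%, against 11.4 and 8.43% of all genes. Risers numbered 11 without both and 4 with only the 6 libraries fitted. col1a1a, a chain of fibrillar collagen, was at 142241, 97595 and 164088 in tet2 mutants and at 32013, 33379.8 and 32767 in younger wildtype (log2 change 2.01, SE 0.20, limma adjusted p = 2.23e-05). col1a2 was at 38895, 8898 and 31703 against 2482, 4737 and 3962 (2.63, limma adjusted p = 0.000583), and col1a1b rose by 2.79 (limma adjusted p = 0.000843). nid1a, a basement membrane gene, was at 1977, 301 and 2485 against 151, 108 and 139 (3.11, limma adjusted p = 0.00168). Replicate 2 was the lowest mutant library for all of them and still stood above every younger wildtype library. nid2a, a close relative named after its values were seen, fell from 1718 ± 507 to 789 ± 138 (-1.09, limma adjusted p = 0.00262). Against wildtype at 2 dpf all 23 changes were negative, from -3.32 to -0.04, with a median of -0.26. There 8016 of 15933 genes had a negative change. 0 of the 23 were called, and 5 had an unadjusted limma p under 0.05. The summed count was 315510, 147391 and 310212 in tet2 mutants, 55998 to 72188 in younger wildtype and 347125 to 390973 in wildtype at 2 dpf.

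Granule and enzyme genes were called about as often as genes in general, 1 higher and 2 lower of 16 (6.25 and 12.5%, against 11.4 and 8.43% of all genes). mpx, whose promoter drove the sort reporter, was at 25586, 66964 and 54457 in tet2 mutants and 50671, 89852 and 32686 in younger wildtype (log2 change -0.22, SE 0.35, limma adjusted p = 0.687). lyz, the lysozyme gene, was at 70379, 178945 and 153940.0 against 154271, 198732 and 68382 (-0.04, SE 0.35, limma adjusted p = 0.952). The groups overlapped for both, and the standard errors leave room for changes of either sign. The matrix metalloproteinase genes fell: mmp13a was at 2164, 4329 and 4693 against 12915, 21844 and 8567 (-1.93, limma adjusted p = 0.0016), and mmp9 at 1097, 2227 and 1791 against 8053, 14456 and 3503 (-2.18, limma adjusted p = 0.00575). The groups did not overlap for either gene, and both were called in every fit that left out 1 library. pglyrp6, a peptidoglycan recognition gene with 3 reads in younger wildtype, was at 109, 40.1 and 309.9 in tet2 mutants, a ratio of 129 with a 95% counting interval of 43.8 to 628 (limma adjusted p = 0.0108). 7 members of the list fell without younger wildtype replicate 3, 4 without tet2 mutant replicate 2, and 5 without both.

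Calls among oxidase and receptor genes mostly depended on single libraries, and none was made with only the 6 libraries fitted. All 8 tested genes of the NADPH oxidase had a negative change, where 7831 of 15933 genes did, and 3 fell (37.5%, against 8.43% of all genes). Their summed counts overlapped between the groups, at 16007, 36277 and 31904 in tet2 mutants and 49743, 60223 and 29423 in younger wildtype. Without both 3 also fell, but none fell without tet2 mutant replicate 1 or without younger wildtype replicates 1 or 2. cybb, the catalytic subunit, was at 3663, 8403 and 7622 against 12289, 13507 and 8589 (-0.87, limma adjusted p = 0.0246). rap1aa fell by 0.45 (limma adjusted p = 0.0454), a call that ended without both, with quantile normalization and in each fit that left out 1 library other than younger wildtype replicate 3. Of 24 receptor and migration genes 7 fell (29.2%, against 8.43% of all genes) and none rose. Fallers numbered 5 without both, 11 without younger wildtype replicate 3, and 2, 3 and 1 without tet2 mutant replicate 1, younger wildtype replicate 1 and younger wildtype replicate 2. il6r, an interleukin 6 receptor gene, was at 1541, 3547 and 2932 against 6752, 12722 and 3815 (-1.45, limma adjusted p = 0.0117). Its call held in every fit that left out 1 library and without both (highest limma adjusted p = 0.0497). cxcr4b, the receptor that holds neutrophils in their tissue of origin, fell by 1.45 (limma adjusted p = 0.0124), the actin regulator gene coro1ca by 0.60 (limma adjusted p = 0.0191), and csf3r, the receptor of granulocyte colony-stimulating factor, by 0.68 (limma adjusted p = 0.0319). The csf3r call ended without tet2 mutant replicate 1 or 3 or younger wildtype replicate 1 or 2, the coro1ca call without tet2 mutant replicate 1 or younger wildtype replicate 2, and the cxcr4b call without younger wildtype replicate 2. cybb lost its call without tet2 mutant replicate 1 or younger wildtype replicate 1 or 2.

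**Figure D4:**
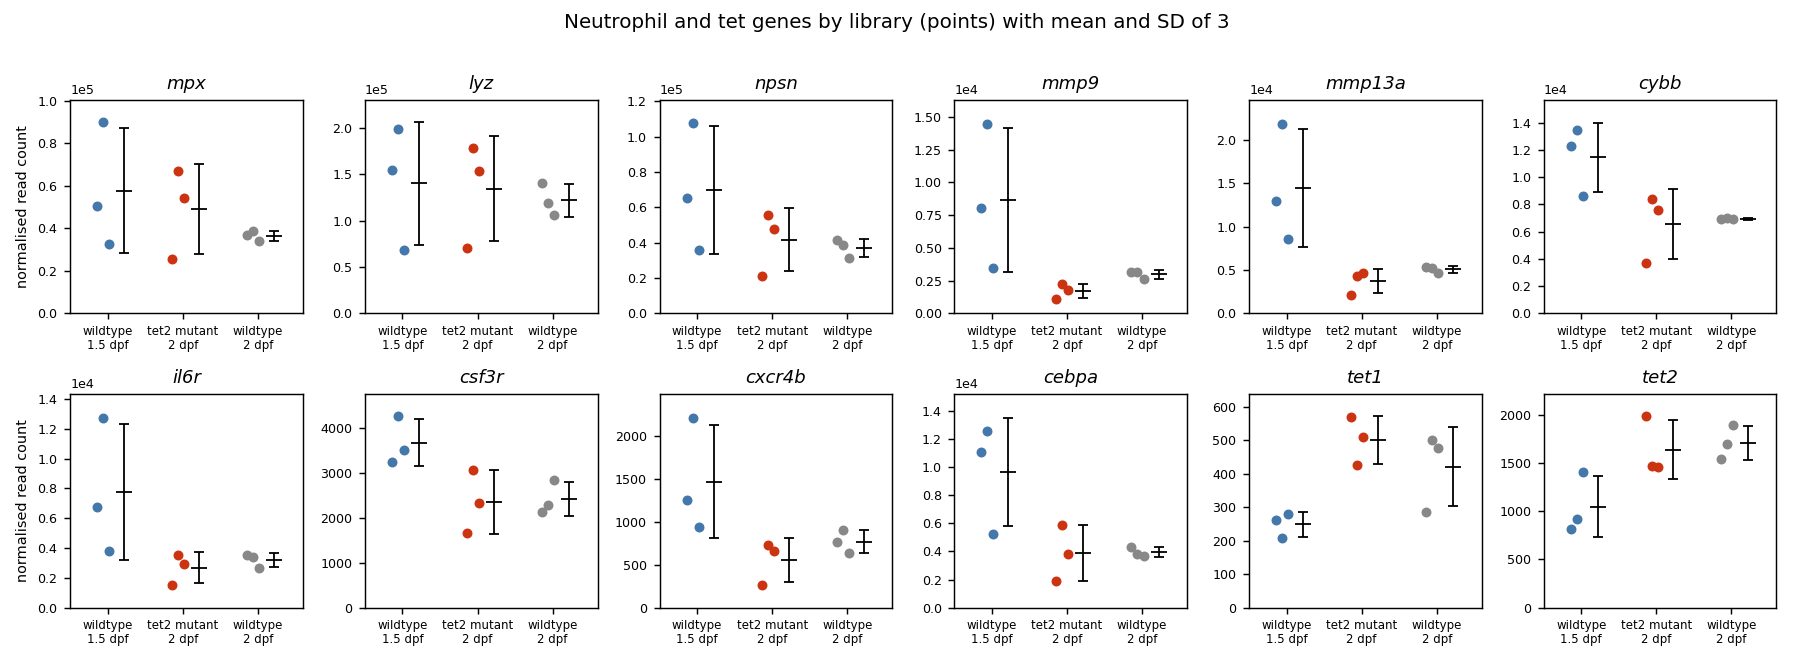
Normalised read counts of 10 neutrophil genes, tet1 and tet2 on linear axes, with 1 point per library and mean ± SD of 3 as bars. The mpx and lyz points of tet2 mutants and younger wildtype overlap, while all 3 tet2 mutant points of mmp9 and mmp13a lie below the younger wildtype points.

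Of 19 myeloid transcription factor genes tested egr1 rose and gfi1b and cebpa fell, 5.26 and 10.5% against 11.4 and 8.43% of all genes. The fallers numbered 5 without tet2 mutant replicate 2 or younger wildtype replicate 3, 3 without both, and 1 without tet2 mutant replicate 1, younger wildtype replicate 1 or younger wildtype replicate 2. cebpa, a driver of granulocyte fate, was at 1897, 5902 and 3799 against 11071, 12593 and 5264 (-1.37, limma adjusted p = 0.0147), with overlap at 1 library and no call without tet2 mutant replicate 1 or younger wildtype replicates 1 or 2. egr1 was at 8981, 3958 and 2799.7 against 1254, 1694 and 3776 (1.21, limma adjusted p = 0.037) and lost its call without the same libraries. In cytokine signalling 1 of 25 JAK, STAT and socs genes rose and 3 fell (4 and 12%, against 11.4 and 8.43% of all genes). The fallers numbered 2 without both, 5 without tet2 mutant replicate 2, and 1 without younger wildtype replicate 2 or with only the 6 libraries fitted. socs3b, a suppressor of cytokine signalling, was at 875, 1658 and 871 against 2546, 1492 and 2115, and did not pass (-0.89, SE 0.34, limma adjusted p = 0.0744). socs9 fell from 193 ± 37.6 to 61.3 ± 24.5 (-1.70, limma adjusted p = 0.00408), socs1a by 1.99 (limma adjusted p = 0.0136) and the kinase gene jak2a by 0.77 (limma adjusted p = 0.0236). The socs1a call ended without younger wildtype replicate 2, and that of jak2a without tet2 mutant replicate 1 or younger wildtype replicate 1 or 2. pias1a, an inhibitor of STAT factors, rose by 1.37 (limma adjusted p = 0.00824), a call that ended with only the 6 libraries fitted.

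Inflammatory genes had 2 risers and 5 fallers among 28 (7.14 and 17.9%, against 11.4 and 8.43% of all genes) and a median of -0.71. Fallers came to 8 without both, 11 without younger wildtype replicate 3, 10 without tet2 mutant replicate 2, 3 without tet2 mutant replicate 1 and 2 without younger wildtype replicate 1 or 2 or with only the 6 libraries fitted. il11b, an interleukin 11 gene, was at 20.4, 198 and 74.6 against 913, 1595 and 366 (-3.57, limma adjusted p = 0.0031), and tnfaip2b, a gene induced by tumour necrosis factor in other species, fell from 318 ± 133 to 70.7 ± 28.4 (-2.15, limma adjusted p = 0.00134). ptgs2b, a prostaglandin synthase gene, rose by 1.44 (limma adjusted p = 0.00957; not called without younger wildtype replicate 1). saa, which encodes the acute phase protein serum amyloid A, had 2 reads in younger wildtype and was at 38.4, 16.5 and 68.2 in tet2 mutants (ratio 52.3, 95% counting interval 14.1 to 438, limma adjusted p = 0.0138); it was not called without tet2 mutant replicate 3 or without both. Of 12 interferon-responsive genes 2 rose (16.7%, against 11.4% of all genes). isg15, a ubiquitin-like antiviral protein gene, was at 158, 214 and 119.6 against 11.6, 9.11 and 14.2 (3.68, limma adjusted p = 0.00621), while ifih1, a sensor of viral RNA, rose by 1.46 (limma adjusted p = 0.0298), with libraries that nearly touched (49.2 against 49.1) and a call that 4 of the 6 single libraries decided. ifitm1, another gene known from interferon responses and on none of the lists, was among the 15 largest falls, at 36.0, 86.2 and 12.9 against 866, 1427 and 397 (-4.48, limma adjusted p = 0.000358).

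Of 20 tested pigment and neural crest markers 11 fell (55%, against 8.43% of all genes), none rose and 9 did not pass, with a median of -2.07. Fallers numbered 13 without both, 4 with only the 6 libraries fitted, 6 with edgeR, 5 to 8 without any single one of the 6 libraries except tet2 mutant replicate 1, and 14 without that. The 3 tet2 mutant libraries held summed counts of 9441, 4338 and 2802, against 12719, 11195 and 11472 in younger wildtype. sox10, the factor that specifies neural crest pigment cells, was at 641, 481 and 256 against 1494, 1314 and 1509 (-1.74, limma adjusted p = 0.000874). ltk, a receptor kinase gene of iridophores, fell by 1.41 (limma adjusted p = 0.00171), and the purine synthesis genes gart and atic fell by 1.21 and 1.46 (limma adjusted p = 0.00249 and 0.00321). mitfa, the melanophore factor, named after its values were seen, was at 186 ± 89.7 against 215 ± 56.2 (limma adjusted p = 0.714). tbx6l, a T-box gene on none of the lists, fell from 427 ± 27.9 to 23.3 ± 17.8 (-4.40, limma adjusted p = 0.00238).

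Neural, epidermis and muscle markers had medians of 1.28, 1.50 and 1.47, and tet2 mutant replicate 1 was the highest of the 6 compared libraries for all of them. The summed neural level was 57298, 22736 and 12801 in tet2 mutants against 12243, 10682 and 26330 in younger wildtype, and the groups overlapped. Of 27 neural markers 9 rose and 2 fell (33.3 and 7.41%, against 11.4 and 8.43% of all genes), and 10 and 2 without both. Risers numbered 16 without tet2 mutant replicate 3, 15 with DESeq2 and 4 with only the 6 libraries fitted. elavl4, an RNA-binding protein gene of neurons, was at 3619.8, 986 and 725 against 103, 116 and 260.4 (3.22, limma adjusted p = 0.00136), and the synaptic genes sncb and snap25a rose by 2.67 and 2.54 (limma adjusted p = 0.00233 and 0.00121). her4.1, a Notch target of neural progenitors, rose by 1.73 (limma adjusted p = 0.00317). sox19a, a neural progenitor factor gene named after its values were seen, fell, from 1971 ± 1245 to 403 ± 244 (-2.40, limma adjusted p = 0.00373). Of 23 epidermis markers 5 rose (21.7%, against 11.4% of all genes), but 0 without both or with only the 6 libraries fitted. Risers numbered 9 with edgeR, 3 with quantile normalization, 1 without tet2 mutant replicate 1, younger wildtype replicate 1 or younger wildtype replicate 3, and 8 without tet2 mutant replicate 2. krt5, a keratin gene, was at 11493, 1422 and 2181 against 209, 1311 and 342 (2.85, limma adjusted p = 0.0129), with mutant replicate 2 barely above younger replicate 2 and no call without younger wildtype replicate 1. Among 35 muscle markers limma called tnnt3b alone (2.86%, against 11.4% of all genes), edgeR 3, DESeq2 8 and limma on only the 6 libraries 2, all higher. tnnt3b was at 936, 546 and 1335 against 105, 275 and 69.1 (2.80, limma adjusted p = 0.0123). No muscle marker was called without both or without tet2 mutant replicate 1, while 4 were without tet2 mutant replicate 2. Whether neural, skin or muscle RNA in the sorted material had a part in other changes was not tested.

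**Figure D5:**
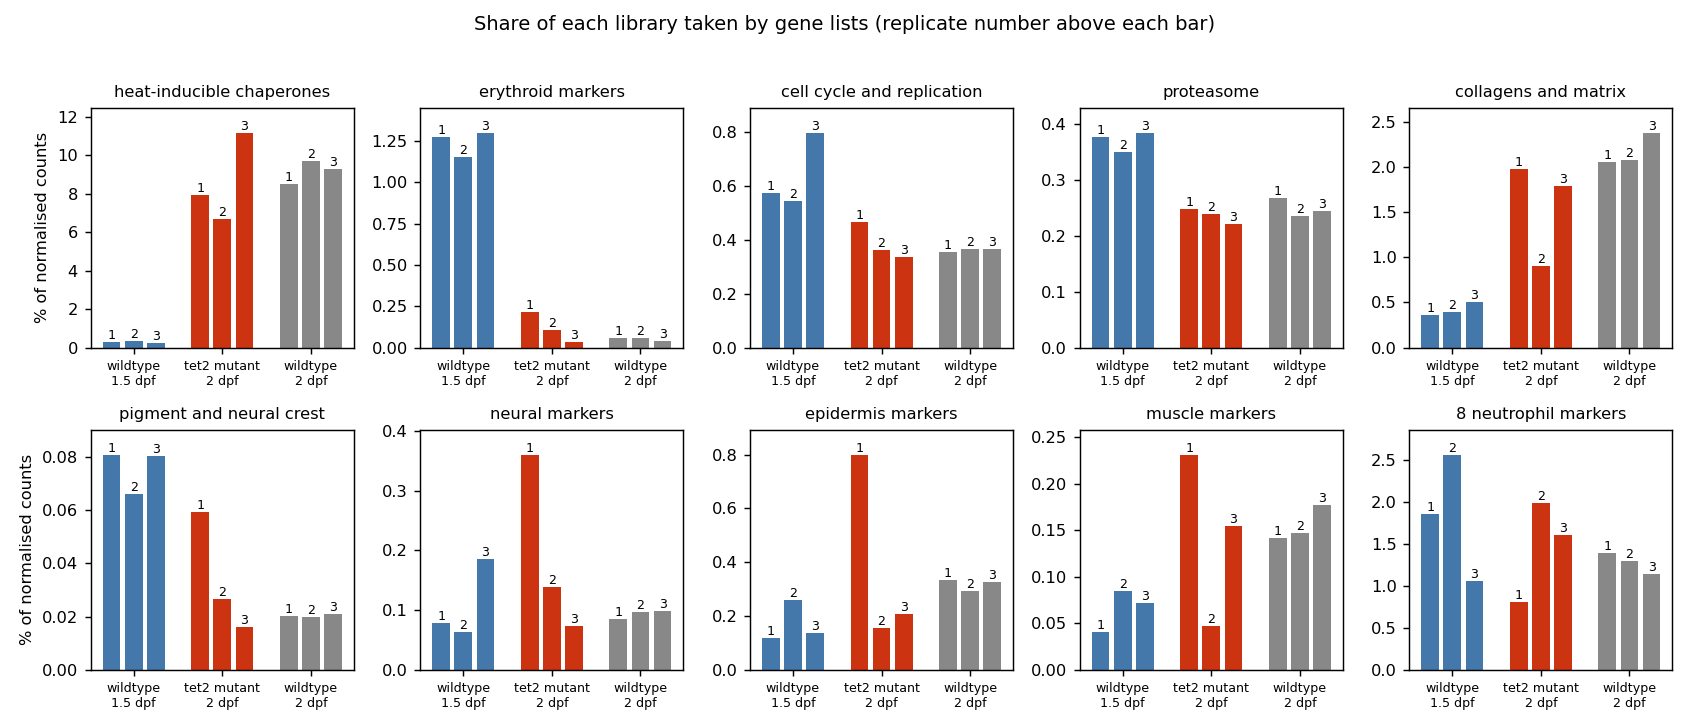
Share of each library's normalised counts, in percent, that 9 gene lists and the 8 neutrophil markers took in wildtype at 1.5 dpf, tet2 mutants at 2 dpf and wildtype at 2 dpf, with the replicate number above each bar. The chaperone, erythroid, cell cycle, proteasome, collagen and pigment shares separate tet2 mutants from younger wildtype. For neural, epidermis and muscle markers tet2 mutant replicate 1 stands highest, and the neutrophil marker shares of both groups overlap.

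Of 27 endothelial markers 1 rose and 5 fell (3.7 and 18.5%, against 11.4 and 8.43% of all genes), with a median of -0.46, and with only the 6 libraries fitted 1 fell; without both 2 rose and 2 fell, and 1 fell without tet2 mutant replicate 1 or younger wildtype replicate 1. sox18, a vascular transcription factor gene, was at 131, 123 and 261 against 842, 432 and 573 (-1.87, limma adjusted p = 0.000909), and its relative sox7 fell by 1.39 and egfl7 by 1.3 (limma adjusted p = 0.0239 and 0.0203), both lost without tet2 mutant replicate 1 or younger wildtype replicate 1. stab1, a scavenger receptor gene of veins and lymphatics, rose from 643 ± 108 to 1692 ± 1033 (1.2, limma adjusted p = 0.0272), with overlap and a call that 4 of the 6 single libraries decided. The summed endothelial level was 9454 to 18831 in tet2 mutants and 12572 to 17863 in younger wildtype. Of 26 macrophage markers 3 rose and 2 fell, 11.5 and 7.69%, which is near the share among all genes (11.4 and 8.43%); without both 3 rose and 3 fell, and with only the 6 libraries fitted 1 rose. lgals3bpb was at 1339, 3123 and 5037 against 622, 409 and 551 (2.41, limma adjusted p = 0.00238), and lgals9l1, a galectin gene, rose by 1.27 (limma adjusted p = 0.0126). mfap4, a macrophage marker of zebrafish, fell from 6844 ± 2324 to 3161 ± 1877 (-1.23, limma adjusted p = 0.0193), again with overlap, and was not called without tet2 mutant replicate 1 or younger wildtype replicates 1 or 2. No fall of the list was called without these same libraries.

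Among metabolic lists, glycolysis had 1 riser among 26 (median -0.24), oxidative phosphorylation 1 riser and 1 faller among 26 (median -0.33), and cholesterol synthesis 1 riser and 3 fallers among 23 (median -0.39), where 19.8% of all genes were called either way. Glycolysis had 0 fallers in the fit of all libraries, 5 without younger wildtype replicate 3 and 2 without both. Cholesterol synthesis had 5 fallers without younger wildtype replicate 3 and 0 with only the 6 libraries fitted. In this list insig1, a sterol sensor, fell from 2039.6 ± 325 to 969.9 ± 322 (-1.11, limma adjusted p = 0.00296), hsd17b7 by 1.1 (limma adjusted p = 0.0113) and hmgcrb, a gene of the rate-limiting reductase, by 0.65 (limma adjusted p = 0.0352), while ldlra, a receptor gene for lipoprotein uptake, rose by 1.36 (limma adjusted p = 0.0384). The calls of hmgcrb and ldlra each ended without 4 or more single libraries. Of 16 stem and progenitor genes 1 rose (meis1b) and 2 fell (lmo2 and hhex), 6.25 and 12.5% against 11.4 and 8.43% of all genes. The meis1b and hhex calls ended without tet2 mutant replicate 1 or younger wildtype replicate 1 or 2. Of 3 tested lens, yolk and liver markers 1 rose (33.3%, against 11.4% of all genes), and 3 genes are too few to describe a list. The riser was apoa1b, from 11.2 ± 4.95 to 87.3 ± 43.5 (2.80, limma adjusted p = 0.00845), and it was not called without both.

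The 16 genes called between tet2 mutants and wildtype of matched age are given here for that call, and both contrasts use the same tet2 mutant libraries. Since they were picked on the values of those libraries, their calls against younger wildtype are no separate evidence. With limma on only the tet2 mutant libraries and those of wildtype at 2 dpf, 0 genes were called. Against younger wildtype 10 of the 11 lower genes also fell and 4 of the 5 higher genes also rose, all without overlap. Over all genes 19.8% were called in that contrast and 32.8% did not overlap. si:dkeyp-85e10.2, known only by a clone name, was at 4.80, 0 and 0 in tet2 mutants, at 236.7, 253.9 and 159.1 in younger wildtype and at 190.4 ± 52.6 in wildtype at 2 dpf. Its log2 change was -6.89 against younger wildtype (SE 0.55, limma adjusted p = 2.76e-06) and -6.70 against wildtype at 2 dpf (limma adjusted p = 2.09e-05). The groups were far apart in both cases. si:dkeyp-85e10.3, with the same clone prefix, was at 0, 0 and 6.43 against 97.0, 164 and 110.8 in younger wildtype (-5.96, limma adjusted p = 3.04e-05) and 127 ± 52.6 in wildtype at 2 dpf. The series also holds tet3 mutants and tet2/tet3 double mutants at 2 dpf. Their means were 327 and 268 for si:dkeyp-85e10.2 and 186 and 135 for si:dkeyp-85e10.3, so the double mutants did not share these low values.

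si:dkey-286j15.1 was at 464, 374 and 382 in tet2 mutants, at 1743, 1636 and 1655 in younger wildtype and at 902 ± 154 in wildtype at 2 dpf, so the mutants were the lowest and younger wildtype the highest group. Its log2 changes were -2.05 (limma adjusted p = 6.19e-06) and -1.14 (limma adjusted p = 0.0141). gpx4a, a gene of the glutathione peroxidase that reduces lipid peroxides, was at 78.0, 90.9 and 127 against 251, 200.5 and 155 in younger wildtype (-1.03, limma adjusted p = 0.0205) and 326 ± 45.6 in wildtype at 2 dpf (-1.73, limma adjusted p = 0.0212). On the higher side, AL935126.1 was at 74.4, 61.4 and 51.4 in tet2 mutants and at 0 in every younger wildtype library and every wildtype library at 2 dpf (limma adjusted p = 0.000266 and 0.00513). znf1179, a zinc finger gene, was at 156, 152 and 322 against 67.2, 57.3 and 63.4 in younger wildtype (1.64, limma adjusted p = 0.00805) and 23.1 ± 8.78 in wildtype at 2 dpf (3.10, limma adjusted p = 0.00206). In tet3 mutants and double mutants the means were 98.1 and 60.4 for AL935126.1 and 389 and 232 for znf1179, so neither was high in tet2 mutants alone. There si:dkey-286j15.1 was at 1176 and 1084, and gpx4a at 158 and 218. The exceptions were tgm2l, a transglutaminase gene, and znf1028. tgm2l was at 34.8, 60.2 and 121 in tet2 mutants and 56.9, 116 and 35.03 in younger wildtype, with overlap (0.04, limma adjusted p = 0.964), but at 590.1 ± 116 in wildtype at 2 dpf. These genes were named after their values were seen.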

How the data were processed

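Polyadenylated RNA of sorted embryonic neutrophils was sequenced, per the labels' protocols. The submitters' processing notes name TopHat, Cufflinks and DESeq2; no source used here gives the annotation, the build or the program that counted reads. The deposited values are a signal that the authors normalised; from the values, they are gene counts divided by 1 factor per library. Dividing by the value of 1 read gave whole reads for 100% of values (tolerance 0.01), 12.19 to 15.05 M per compared library. Their number limits the precision, and counting intervals cover counting error only.

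Of 15937 genes 15933 reached a value of 10 in 3 or more libraries and were tested with limma 3.58.1 (trend, robust; R 4.3.3) on log2(value + 1), with 5 group means, two-sided, Benjamini-Hochberg threshold 0.05. Named genes were tet1, tet2, tet3, socs3b, mpx and lyz, the 15 largest rises and 15 largest falls (higher group's mean 50 or more, groups apart, no clone name), and up to 4 members with the smallest p of each of 28 lists (666 genes tested of 762 entries, 17 matched by identifier under another symbol). Other genes were chosen after their values were seen, as were all 16 called against wildtype at 2 dpf. The comparison and the lists were chosen with earlier results of these data known. Alternatives were other pseudocounts, filters and scalings, edgeR 4.0.16 and DESeq2 1.42.0 on the recovered reads, only the libraries compared, library weights, a heat shock covariate, a replicate block and each library left out; the code was tested on simulated data. 1 list and some genes are not reported here.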

Additional observations from a re-analysis of the deposited data

How the results depend on the processing

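Against younger wildtype, 3161 calls (1818 higher, 1343 lower) became 818 (552 and 266) with only the 6 libraries fitted, 4790 (2729 and 2061) with library weights, and 25 (13 and 12, with 1528 unadjusted against 5584 here) with hsp70l and hsp70.3 as a covariate. With 1 library left out they ran from 1605 to 3642 (higher 999 to 2098, lower 606 to 1619); the lowest were without younger wildtype replicate 1. The lower calls were 855 and 872 without tet2 mutant replicates 1 and 3. edgeR gave 3190, DESeq2 4178 and quantile normalization 2656, which moved the median of all genes from 0.015 to -0.106. Scaling outside the heat shock list, added after seeing the data, gave 2914. Against wildtype at 2 dpf, 16 calls became 32 with quantile normalization, 111 with DESeq2, 55 with library weights, 0 with limma on only the libraries compared (931 unadjusted), and 7 to 85 with 1 library left out (85 without tet2 mutant replicate 3, where 1936 passed unadjusted). The cause was not tested.

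Same-numbered libraries deviated together at -0.284, 0.146 and -0.288, so no pairing by number was seen. The highest value, 0.495, was between tet2 mutant replicate 1 and younger wildtype replicate 3, each the lowest of its group in neutrophil transcripts. Such differences could hide a pairing, so the check cannot exclude one. A replicate block gave 2700 and 13 calls. With the heat shock covariate 10 named genes changed sign, none called: tet1 -0.68, pglyrp6 -2.29, hsp70.1 -0.24, saa -0.47, dnmt3ab -0.10, uqcrfs1 0.11, bcl2l1 -0.37, psmc6 0.078, hmgcrb 0.26 and ldlra -0.51. The slope behind these signs comes from differences within groups, widest among the double mutants, so the signs are no result about these genes. Of 120 named calls 93 to 113 remained with 1 library left out and 69 with only the 6 libraries.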
